A study of Mus musculus with 5 samples.

Results

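H3K9ac peaks were described at the genes of 3 E proteins, Tcf12, Tcf3 and Tcf4, and of the 4 Id proteins, Id1, Id2, Id3 and Id4. These 7 genes were taken from the 22380 protein-coding genes of the GENCODE vM1 annotation, and a peak was assigned to each member with a transcript start no more than 10 kb from the peak's centre. By this rule 30 of the 34286 peaks of the treated list and 29 of the 33355 peaks of the control list were member peaks.

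The data came from ChIP-seq of histone H3 acetylated at lysine 9 (H3K9ac), a mark of active promoters, in STHdh Q111 cells. This conditionally immortalized line of mouse striatal progenitor cells (strain C57BL/6, genotype STHdhQ111/Q111) carries the expanded CAG repeat in huntingtin, so every sample made the mutant protein and was a culture of 1 line. All cultures were held for 24 h in serum-free medium, either with the vehicle DPBS (labelled SST, serum starvation, 2 samples) or with 4 mM 4-deoxypyridoxine hydrochloride (DOP, an inhibitor of sphingosine-1-phosphate lyase, 2 samples), and 1 IgG sample of serum-starved cells was the negative control. The comparison addresses where the mark lay with and without inhibition of the lyase, and wild-type cells were not analysed here.

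The deposited files hold 1 peak list per condition, called the DOP list and the SST list here, in which a peak is an interval of 200 bp around the position called for an event. Each peak has a score of the authors' own that the lists do not define, so scores were used as ranks: the score percentile is 100 for the highest peak of a list and near 0 for the lowest. The median score was 418.7 in the DOP list and 399.8 in the SST list. For each condition the paper reports fewer peaks than the deposited list holds. Which events it counted is not given, so some peaks named below may not be among them. With 1 list per condition there was no replicate error, no test could be made, and each difference below is a difference between 2 lists, with the depth behind it unknown. Whether a difference reflects the treatment, the depth of sequencing or the calling of peaks cannot be told apart.

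E proteins are basic helix-loop-helix transcription factors. They pair with each other or with tissue-restricted class II factors, such as those of neurogenesis and myogenesis, and the pair binds the E-box, CANNTG. Id proteins have the helix-loop-helix but lack the basic region, so an E protein held by an Id protein cannot bind DNA, and in neural progenitors Id genes are known as targets of BMP and Smad signalling that restrain differentiation.

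The label of the cells was compared with marker genes, a marker being counted when a peak lay within 1 kb of a start in both lists. Of the 5 neural progenitor markers only Vim met this criterion, and Nes, Sox2 and Pax6 had no peak within 10 kb in either list. Dlx1, Foxp1 and Meis2 met it among 7 genes of the striatal lineage, whereas Gsx2 and Bcl11b had no peak. Col1a1, Col1a2 and Prrx1 met it among 4 mesenchymal or fibroblast genes, 0 of 3 astrocyte genes did, and Pdgfra alone did among 3 oligodendrocyte genes. Acta2, the other mesenchymal gene, had no peak. Of all coding genes 49.6% met the same criterion, and the striatal share of 42.9% was near that. The share was 20% for neural progenitor, 75% for mesenchymal or fibroblast, 33.3% for oligodendrocyte and 0% for astrocyte genes, in sets of 3 to 7 genes. By this criterion the lists did not mark the label's neural progenitor genes beyond Vim. Fabp7 had a peak within 10 kb in the DOP list only, at a percentile of 19.2. The part of this in the results at the member genes was not tested.

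Some upstream intervals within 1 kb of a start at which the lists differed are given first. They are the reference sequence of the mm9 assembly read 5′ to 3′ on the strand of the gene. Other peaks that differed, such as the exonic peaks of Id2 and Id4 and the DOP-only peak of Id3, are not printed. The Tcf12 interval is that of the DOP list and moved most in score percentile between the lists, and the other intervals were called in 1 list only. E-boxes, CANNTG, are in capitals.
Tcf12 upstream peak, in both lists, chr9:71959855-71960054, minus strand: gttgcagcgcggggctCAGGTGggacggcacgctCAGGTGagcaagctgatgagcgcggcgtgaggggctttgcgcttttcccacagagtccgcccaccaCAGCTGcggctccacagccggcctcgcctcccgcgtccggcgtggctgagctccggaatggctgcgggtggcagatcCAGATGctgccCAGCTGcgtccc
Tcf3 upstream peak, SST list only, chr10:79896546-79896745, minus strand: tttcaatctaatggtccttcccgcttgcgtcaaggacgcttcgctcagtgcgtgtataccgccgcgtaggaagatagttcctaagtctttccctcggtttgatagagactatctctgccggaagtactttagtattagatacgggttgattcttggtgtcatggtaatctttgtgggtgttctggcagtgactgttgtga
Id1 upstream peak, SST list only, chr2:152561190-152561389, plus strand: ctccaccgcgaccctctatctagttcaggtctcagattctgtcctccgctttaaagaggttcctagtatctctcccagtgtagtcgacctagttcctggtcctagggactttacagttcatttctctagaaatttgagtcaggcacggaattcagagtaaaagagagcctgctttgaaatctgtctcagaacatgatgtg
Id2 upstream peak, DOP list only, chr12:25781269-25781468, minus strand: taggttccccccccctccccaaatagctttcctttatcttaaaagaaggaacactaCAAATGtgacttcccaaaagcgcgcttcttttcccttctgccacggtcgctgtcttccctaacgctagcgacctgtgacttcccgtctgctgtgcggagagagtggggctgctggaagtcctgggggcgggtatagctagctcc
Id4 upstream peak, DOP list only, chr13:48355968-48356167, plus strand: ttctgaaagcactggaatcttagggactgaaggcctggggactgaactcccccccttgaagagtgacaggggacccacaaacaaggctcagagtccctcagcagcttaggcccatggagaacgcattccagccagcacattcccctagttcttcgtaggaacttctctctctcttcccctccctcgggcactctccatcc

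The Tcf12 interval held 5 E-boxes, of which 2 read CAGCTG and 2 read CAGGTG, and the Id2 interval held 1. No E-box stood in the Tcf3, Id1 or Id4 interval, which says only that these letters are not in those 200 bp. E-boxes were common in the lists. At least 1 CANNTG was present in 13 of the 30 member peaks of the DOP list (43.3%), against 49.9% of all its 29561 peaks within 10 kb of a coding start, and in 13 of the 29 of the SST list (44.8%), against 49.4% of 28989. The motif CAGGTG, searched with its complement CACCTG, was in 7 member peaks of the DOP list (23.3%, against 15.6%) and 5 of the SST list (17.2%, against 15.6%). The palindrome CAGCTG was in 3 (10%, against 10.9%) and 2 (6.9%, against 10.7%). GGCGCC, a GC-rich motif that occurs in BMP-responsive Id promoters and holds no E-box, was in 6 member peaks of each list, which is 20% against 14.2% in the DOP list and 20.7% against 14.5% in the SST list. These shares rest on few member peaks, and a match is a description of the sequence only.

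Across the 7 genes, most peaks stood in both lists at almost the same position. Peaks were counted as shared when their intervals overlapped by at least 1 bp, and 6 member peaks were found in the DOP list only and 4 in the SST list only. Among all peaks near coding genes 16.2% of the DOP list and 13.3% of the SST list were in that list only. The E protein genes had 15 peaks in the DOP list and 17 in the SST list, with 1 and 2 of them in that list only, whereas the Id genes had 15 and 12, with 5 and 2 in that list only. This split rests on few peaks. Over the whole family, 6 of 30 and 4 of 29 peaks were in that list only, which was near the shares of all peaks near coding genes.

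**Figure D1:**
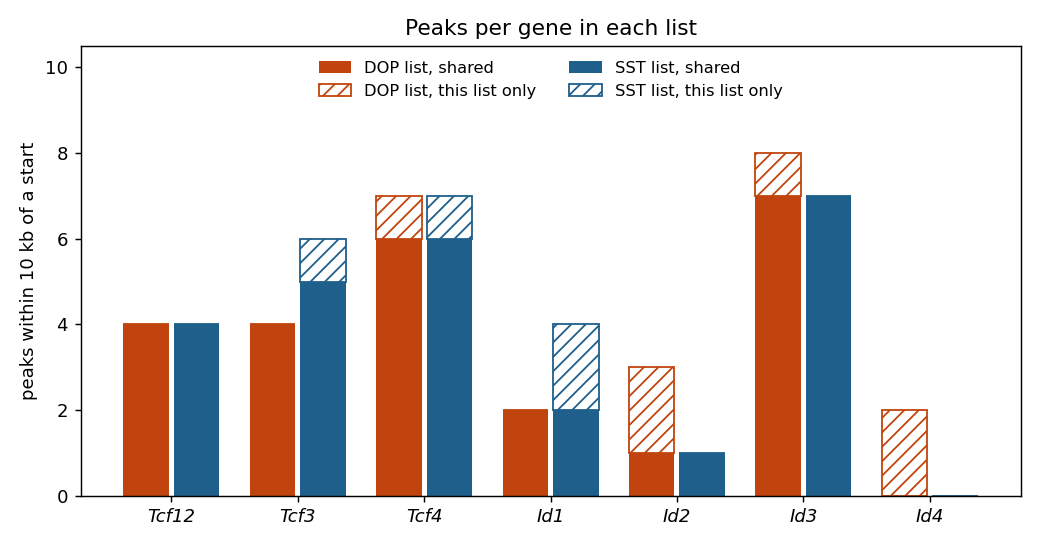
Number of H3K9ac peaks within 10 kb of a transcript start of each gene (vertical axis), in the DOP list (orange) and the SST list (blue), with peaks of 1 list only hatched. Id2 had 3 peaks against 1, Id4 had 2 against none, and Tcf12 had 4 in each list.

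Id2, Id3 and Id4 had more peaks in the DOP list, which is 3 of 7 members, and among the 13272 genes that either list marked, 32.5% had more. Tcf3 and Id1 had fewer, 2 of 7 members against 28.5% of genes, and Tcf12 and Tcf4 had equal numbers. Id4 was the 1 member with peaks in the DOP list only, as 4.03% of genes had. Within 1 kb of a start, Id2 and Id4 had peaks in the DOP list only, 2 of 7 members, and 3.41% of the 11779 genes with a peak that close had the same pattern. The shares of members are of a group of 7 genes, in which 1 gene is a large share.

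Tcf12, which encodes the E protein HEB, is the gene of this family that the study silenced with siRNA in these cells. It lies on chromosome 9, from 71692059 to 71959626 on the minus strand of mm9. Its peaks, 4 in each list and all shared, formed 1 cluster around the upstream-most start, and each of them was within 1 kb of it. In the DOP list the centres lay 753, 347 and 273 bp downstream of the start, in the first part of the gene that the annotation gives as intron, and 328 bp upstream of it, with scores of 1059.2, 1182.9, 914.0 and 566.0 and percentiles of 88.9, 91.9, 84 and 64.1. In the SST list they lay 825, 505 and 275 bp downstream and 319 bp upstream, with scores of 938.4, 687.3, 1788.3 and 306.5 and percentiles of 85.8, 74.2, 98.2 and 39.1.

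The number of peaks at Tcf12 was the same, and their ranks were not. At 273 and 275 bp downstream, with centres 2 bp apart, the DOP list stood 14.2 percentile points lower. The DOP list also had a peak at 347 bp, 72 bp from the nearest centre of the SST list. Its interval overlapped that of the DOP peak at 273 bp, so the SST peak at 275 bp lay over both. It also overlapped the SST peak at 505 bp, and these peaks counted as shared but formed no pair. The upstream peak with the 5 E-boxes, with centres 9 bp apart, stood 25.1 points higher in the DOP list. Of the 22834 pairs of peaks near coding genes, 3.63% stood as many points or more higher in the DOP list, and 7.23% stood 14.2 or more lower. These pairs differed in opposite directions within about 1 kb, and the lower one lay where the DOP list had overlapping peaks. The highest peak of Tcf12 was at or above that of 77.5% of the genes marked in the DOP list and 94.8% in the SST list, so by this measure the gene stood lower in the DOP list. By the summed score of its peaks, by contrast, Tcf12 had a similar rank among genes in both lists. The sum, which assumes that scores of 1 list may be added, was 3722.1 in the DOP list, over 674 bp covered and with a mean of 930.5 per peak, and 3720.5 in the SST list, over 800 bp and with a mean of 930.1. The sums were higher than those of 88.6% of the genes marked in the DOP list and 89.7% in the SST list. Scores are not known to share a scale between the lists, so only these ranks can be set side by side.

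Of 691 coding genes with 4 peaks in each list, the 3 with the highest-peak percentiles nearest to those of Tcf12, 91.9 in the DOP list and 98.2 in the SST list, were 9030025P20Rik and Gm3417, neighbours on opposite strands that share their peaks, both with 91.9 and 98.1, and Mkl2 with 92.2 and 97.8. The likeness is the larger of the differences in the 2 lists, which was 0.105 points for the first 2 genes and 0.357 for Mkl2, and it is a description over 2 lists.

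Tcf3, on chromosome 10 from 79872259 to 79896392 on the minus strand, encodes a broadly expressed E protein known for its part in early lymphocytes, and it carried the highest peak of the family. That peak lay in the 5′ UTR, 224 bp downstream of the nearest start in the DOP list and 246 bp in the SST list, with scores of 2321.5 and 2417.1. It ranked 174th of the DOP list and 154th of the SST list, so both percentiles were 99.5. The intronic pair at 606 and 611 bp had scores of 1156.5 and 924.9 and percentiles of 91.3 and 85.4. The promoter of Tcf3 was thus among the highest-ranked peaks with and without DOP.

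The SST list had 1 further peak at the Tcf3 promoter, 253 bp upstream, with a score of 580.0 and a percentile of 66.9. It is the interval printed above, and the nearest centre of the DOP list was 503 bp away. Among SST peaks near genes with percentiles from 60 to 70, 5.53% were in that list only. The other peaks that the window assigned to Tcf3 lay 8309 and 8957 bp downstream of a start in the DOP list and 8328, 8890 and 9019 bp in the SST list, and each was nearest to a start of Uqcr11, a gene of the mitochondrial respiratory chain, at 169 to 348 bp. Their scores were 607.0 and 1371.0 in the DOP list and 461.0, 622.9 and 871.1 in the SST list, and the pairs among them stood 10.8 and 11.7 points higher in the DOP list. Without them Tcf3 had 2 peaks in the DOP list and 3 in the SST list.

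Tcf4, from 69503800 to 69847621 on the plus strand of chromosome 18, encodes the E protein that is mutated in Pitt-Hopkins syndrome and has 14 annotated starts over 343822 bp. It had 7 peaks in each list, spread over 6 clusters, so its mark was divided over several starts where that of Tcf12 was gathered at 1. Its highest peak, 210 and 199 bp downstream of an internal start, had scores of 808.7 and 838.4 and percentiles of 79.3 and 81.9. The other shared peaks had percentiles from 41.3 to 55.5 in the DOP list and from 40.2 to 52 in the SST list. The pair at 547 and 490 bp downstream of another internal start stood 10.7 points lower in the DOP list, with scores of 342.0 and 419.0, and the other 5 pairs differed by at most 6.63 points. Each list had 1 peak that the other lacked, with a score of 192.0 in the DOP list, 2136 bp upstream of the nearest start, and of 256.0 in the SST list, 2097 bp downstream of the nearest start.

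**Figure D2:**
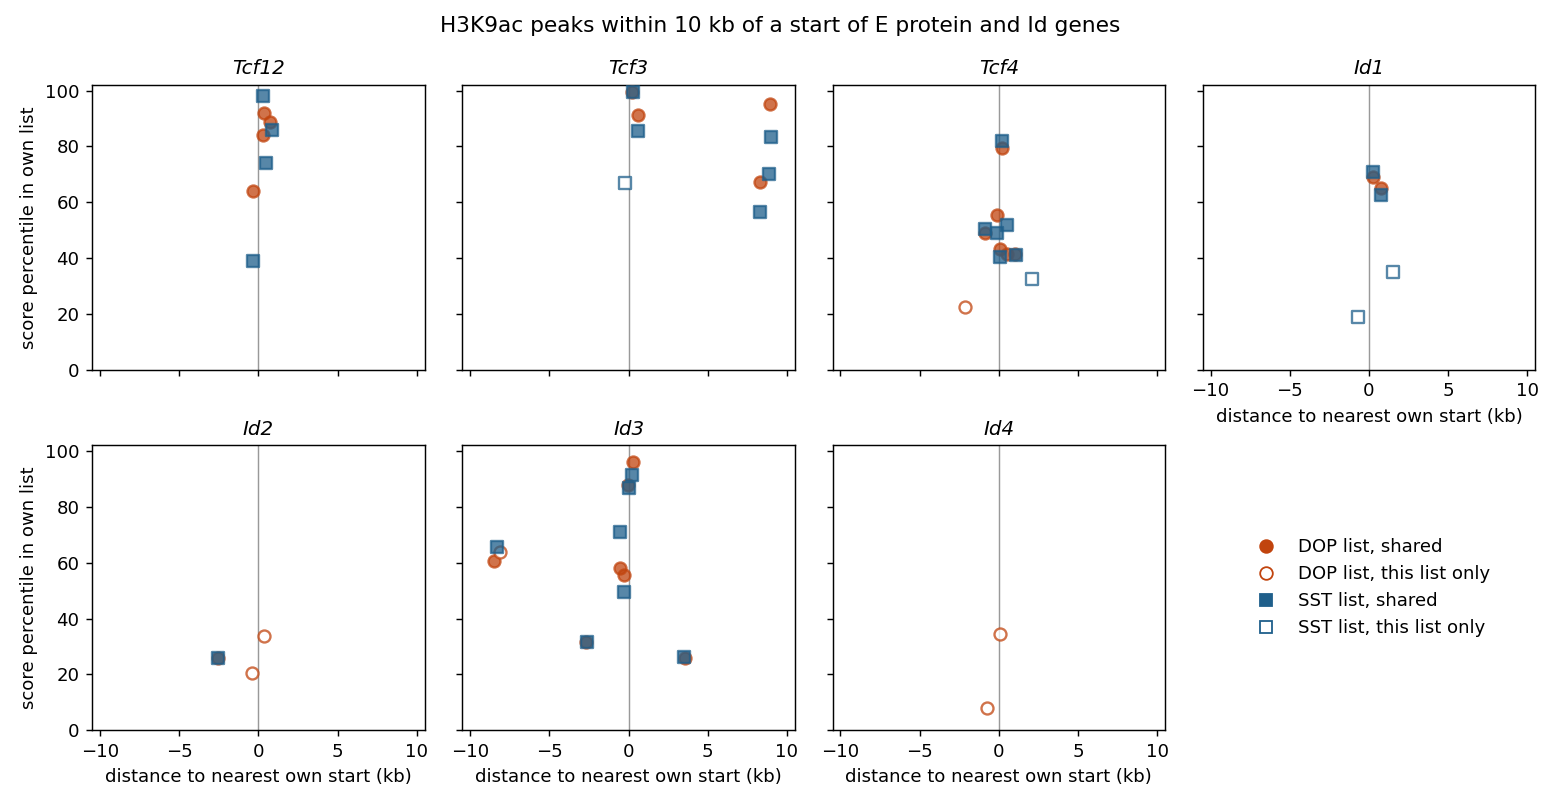
Score percentile of each member peak in its own list (vertical axis) against the distance from its centre to the nearest start of the gene in kb (horizontal axis, negative upstream), with DOP peaks as orange circles, SST peaks as blue squares and peaks of 1 list only unfilled. The peaks of Id4 and those nearest the start of Id2 are unfilled circles at percentiles of 34.3 or less, and the filled pair 319 to 328 bp upstream of Tcf12 stands at 64.1 in the DOP list and 39.1 in the SST list.

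Id1, on chromosome 2 from 152561987 to 152563146 on the plus strand, had 2 shared peaks that agreed closely between the lists. The peak in the coding exon, 257 and 261 bp downstream of the start, had scores of 635.3 and 636.8 and percentiles of 69.2 and 70.9. The peak in the 3′ UTR, 777 and 765 bp downstream, had scores of 579.7 and 525.2 and percentiles of 65.1 and 62.5. On either side of these, the SST list had a peak that the DOP list lacked: 698 bp upstream with a score of 157.0 (percentile 19), printed above, and 1534 bp downstream, beyond the end of the gene, with a score of 275.0 (percentile 35.1). The nearest DOP centres were 955 and 757 bp away, and when peaks within 1 kb were chained Id1 had 1 cluster in each list.

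Id2, on chromosome 12 from 25778666 to 25780957 on the minus strand, had peaks within 1 kb of its start in the DOP list only. The DOP list had a peak in the coding exon, 336 bp downstream of the start, with a score of 278.0 (percentile 33.7), and the peak printed above, 411 bp upstream, with a score of 178.0 (percentile 20.5). The nearest SST centres were 2870 and 2123 bp away, and they belonged to the 1 peak of Id2 in the SST list, which was shared. This shared peak, 2556 bp upstream in the DOP list and 2534 bp in the SST list, had scores of 216.0 and 205.0 and percentiles of 25.7 and 25.8, a difference of 0.082 points.

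Id4, on chromosome 13 from 48356796 to 48359405 on the plus strand, had no peak in the SST list. Its DOP peaks lay in the coding exon, 93 bp downstream of the start, with a score of 282.0 (percentile 34.3), and 729 bp upstream, printed above, with a score of 84.0 (percentile 7.93). The nearest SST centres were 33378 and 32556 bp away. Of the 4795 DOP-only peaks near genes, 29.7% were more than 2 kb from any SST centre, as the peaks of Id2 and Id4 were, and 10.9% were more than 30 kb away, as those of Id4 were.

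The DOP-only peaks at Id2 and Id4 were of low rank in the list. Over all ranks, 16.2% of DOP peaks near genes were in that list only. Among DOP peaks near genes with percentiles from 30 to 40, which holds the exonic peaks of Id2 and Id4, 20% were in that list only. The share was 28.8% from 20 to 30, where the upstream peak of Id2 stood, and 72.6% under 10, where the upstream peak of Id4 stood. Within their own class they ranked high: of the 402 genes marked within 1 kb of a start by the DOP list alone, 85.6% had a highest such peak below that of Id2 and 87.1% below that of Id4, with a median percentile of 11.2. The class was chosen by the pattern these genes share, so the comparison is a description. At least 2 peaks within 1 kb, as Id2 and Id4 had, were present in 25.6% of these genes.

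**Figure D3:**
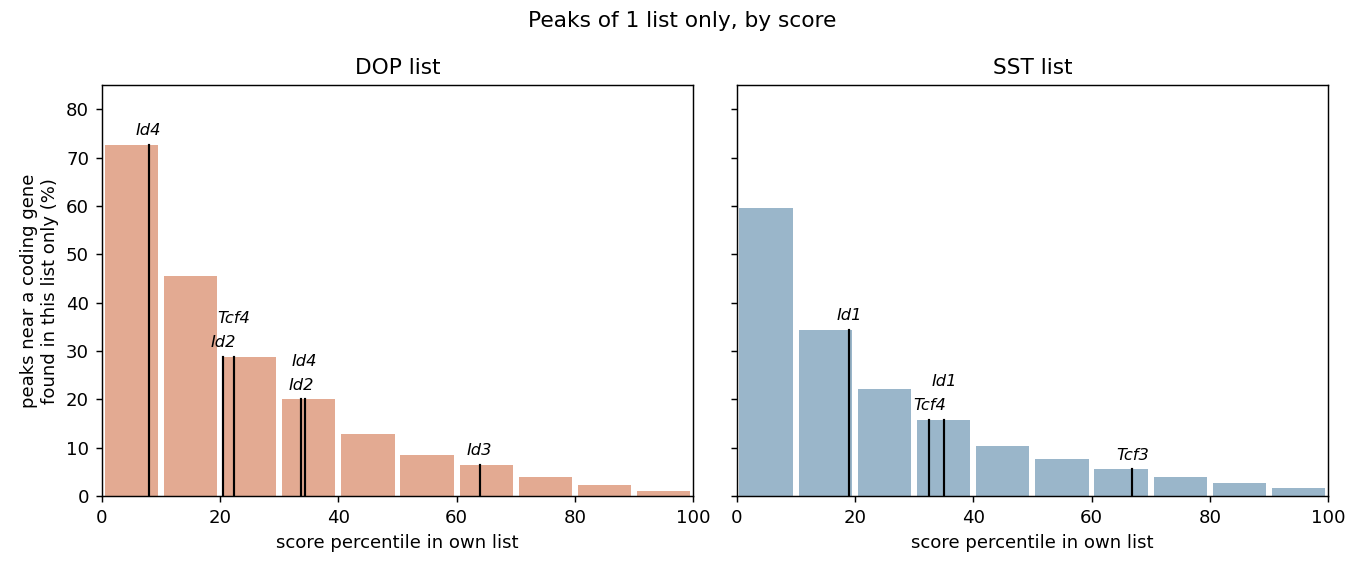
Share of peaks near coding genes found in 1 list only (vertical axis, percent) by score percentile in that list (horizontal axis, bars of 10 points), for the DOP list (left) and the SST list (right), with black lines at the list-only peaks of the member genes. The share falls from 72.6% to 1.14% in the DOP list and from 59.5% to 1.72% in the SST list, and the peaks of Id2 and Id4 lie where it is 20% or more, whereas those of Id3 and Tcf3 lie where it is 6.53% and 5.53%.

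Id3, on chromosome 4 from 135699412 to 135701670 on the plus strand, had 8 peaks in the DOP list, the most of the family, and 7 in the SST list, as many as Tcf4, and its highest peak was the highest of any Id gene. Its top peak, in a coding exon and 276 and 238 bp downstream of a start, had scores of 1428.9 and 1138.7 and percentiles of 95.9 and 91.3. The peak in the 3′ UTR had scores of 1023.0 and 963.0 and percentiles of 87.8 and 86.6. The peak in a non-coding exon, 533 and 518 bp upstream of another start, went the other way, with scores of 499.1 and 636.3 and a percentile 12.7 points lower in the DOP list.

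Outside the gene, Id3 had peaks in both lists at 267 bp upstream (scores 473.0 and 396.0, centres at the same base), at 2691 and 2631 bp upstream (260.3 and 249.0), at 3544 and 3512 bp downstream (216.0 and 209.1) and at 8482 and 8305 bp upstream (527.7 and 562.0). The DOP-only peak lay in the farthest of these clusters, 8105 bp upstream, with a score of 563.3 (percentile 63.9), and an SST centre was 200 bp away, so it just missed the overlap. Id3 had peaks from its promoter to several kilobases on either side in both lists, unlike Id2 and Id4, for which the SST list had 1 and no peak.

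By the percentile of the highest peak, the genes stood in the DOP list in the order Tcf3 (99.5), Id3 (95.9), Tcf12 (91.9), Tcf4 (79.3), Id1 (69.2), Id4 (34.3) and Id2 (33.7), and in the SST list in the order Tcf3 (99.5), Tcf12 (98.2), Id3 (91.3), Tcf4 (81.9), Id1 (70.9) and Id2 (25.8). The median over genes with a peak was 78.4 in the DOP list and 77.3 in the SST list, so the E protein genes and Id3 stood above it and Id1, Id2 and Id4 below it. Which neighbours in this order differ beyond the spread of replicates is not known. By summed score Id4 stood below Id2 in the DOP list. The sum of Tcf3, Uqcr11 peaks included, was above that of 96.6% and 97.6% of genes, that of Id3 above 95.5% and 92.4%, that of Tcf4 above 80.2% and 81.6%, and that of Id1 above 40.4% and 54.6%. The sum of Id2 was above 21.3% of genes in the DOP list (672.0 over 600 bp, mean 224.0) and 7.36% in the SST list (205.0 over 200 bp), and that of Id4 was above 11.8% in the DOP list (366.0 over 400 bp, mean 183.0).

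Most shared peaks of the family kept a similar rank in both lists. Reciprocal nearest peaks that overlapped gave 23 pairs, of which 3 stood 10 or more percentile points higher in the DOP list, where 17.4% of all pairs near genes did, and 3 stood 10 or more lower, where 11.1% did. The pairs that stood higher were the upstream pair of Tcf12 and both pairs at Uqcr11, and those that stood lower were the pairs of Tcf12, Tcf4 and Id3 given above. The other 17 pairs were within 10 points. The median difference, DOP minus SST, was 0.299 points (1.3 over all 22834 pairs), and the median size of the difference was 3.07 points (5.33 over all pairs). Centres were a median of 19 bp apart, against 30 bp over all pairs, and 15 of the 23 pairs were within 25 bp, against 44.9% of all pairs.

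**Figure D4:**
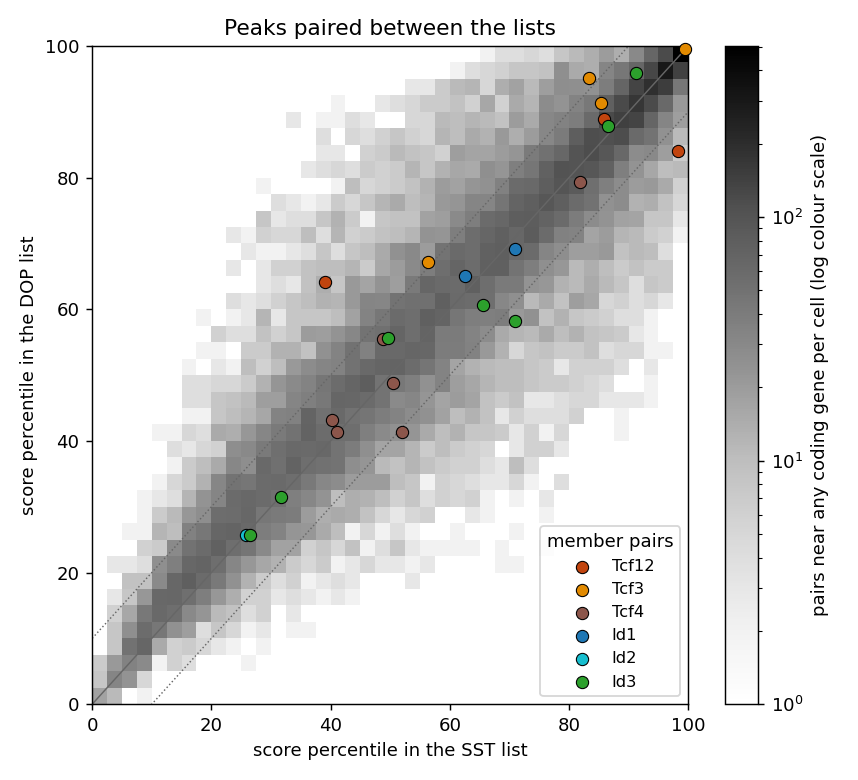
Score percentile in the DOP list (vertical axis) against that in the SST list (horizontal axis) for peaks paired between the lists, with member pairs as coloured points over all 22834 pairs near coding genes in grey, the diagonal as a solid line and differences of 10 points as dotted lines. Of the 23 member pairs, 17 lie between the dotted lines, 3 on or above them and 3 on or below them, and Id4 has no pair.

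Position and base composition of the member peaks were set beside those of all peaks near genes. Within 1 kb of a member's start lay 21 of the 30 DOP peaks, 13 downstream and 8 upstream, and 19 of the 29 SST peaks, 12 downstream and 7 upstream. Counting a start of any coding gene, 23 member peaks of the DOP list (76.7%) and 22 of the SST list (75.9%) lay within 1 kb, against 86.9% and 87.7% of all peaks near genes. The member shares were lower, and the gap rests on few peaks. The median percentile was 59.5 in the DOP list and 62.5 in the SST list, against 55.2 and 55.1 over all peaks near genes. The median GC content was 62% and 61.5%, against 60.5% and 61%, and the median number of CpG dinucleotides per 200 bp was 11 in both, against 11 and 12. The farthest peaks inside the window were those at Uqcr11, at 8957 bp in the DOP list (score 1371.0) and 9019 bp in the SST list (871.1). The nearest beyond it lay 12467 bp from a start of Tcf4 in the DOP list (61.0) and 15108 bp from a start of Tcf3 in the SST list (243.2).

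Genes that work with the E proteins and Id proteins differed in how many carried the mark. Of all 22380 coding genes, 12375 (55.3%) had peaks within 10 kb in both lists. Another 535 had them in the DOP list only, 362 in the SST list only and 9108 in neither. The tissue-restricted factors that pair with E proteins were represented by 39 class II partner genes. Of these, 6 had peaks in both lists (15.4%), 2 in the DOP list only, 3 in the SST list only and 28 in neither. The partner genes with the highest peaks were Scx, a factor of tendon, and Twist2, a factor of mesenchyme. Scx had percentiles of 98 in the DOP list and 96.6 in the SST list, and Twist2 had 94.1 and 95.8. For all related genes the percentile is that of the highest peak within 10 kb, which may be nearest to a start of another gene. Tal2 and Hand2 had peaks in the DOP list only, at percentiles of 7.53 and 4.4, and Neurog2, Neurod2 and Mesp2 in the SST list only, at 9.41, 16.9 and 2.73. The genes with peaks in 1 list only were all of low rank.

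The Hes, Hey and related repressors are basic helix-loop-helix factors, of which only some act below Notch. Of 11 such genes 9 had peaks in both lists (81.8%), and Heyl had 1 in the DOP list only, at a percentile of 3.93. Hes3, with 88.8 and 95.1, and Bhlhe40, with 86.8 and 90.2, had the highest peaks, although those of Hes3 lay more than 1 kb from its start. Of 18 genes of the BMP pathway 12 had peaks in both lists (66.7%), 6 in neither and none in 1 list only. The highest were at Smad6, an inhibitor of the pathway, with 97.7 and 97.5, and at Smad5, one of its transducers, with 93.7 and 94.3. Of 10 genes listed as coregulators of E proteins or of complexes that hold them, 9 had peaks in both lists (90%). The highest were at the acetyltransferase gene Ep300 with 99.9 and 100 and at Ldb1 with 99.7 and 98.3. Lmo2 had 1 peak in the SST list only, at 27.3. Beside the 55.3% of all coding genes with peaks in both lists, the BMP share was near that of all genes. Peaks in the DOP list only, as at Heyl, were found at 535 of all 22380 coding genes. Peaks in the SST list only, as at Lmo2, were found at 362. Within 1 kb of a start, where 49.6% of all coding genes had peaks in both lists, the shares were 12.8% of the partner genes, 54.5% of the Hes and Hey group, 61.1% of the BMP genes and 90% of the coregulators.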

How the data were processed

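The authors immunoprecipitated H3K9ac chromatin, aligned the reads to mm9 (the paper's methods name Bowtie 2, the submitters' processing notes BWA 0.7.10) and called events with GPS. They deposited 1 list per condition with a score for each event. Whether samples were pooled for the call, the use of the IgG sample, the threshold and the definition of the score are not given in the sources used here. The members and gene lists were chosen with earlier results of these data known. Distances were measured from event centres to all transcript starts of GENCODE vM1 protein-coding genes, and sequence came from NCBIM37 (mm9). Score percentiles were computed within each list over all its peaks. The text names every member peak, the 3 genes most like Tcf12, and from each list of related genes the 2 with the highest mean percentile and those with peaks in 1 list only. Tcf24, a partner gene, was not found by name in the annotation. The class of genes set beside Id2 and Id4, the shares by score and the summed scores were chosen after seeing the data. Alternatives were other windows, starts, score limits, sharing rules and chaining. Functions were tested on simulated data with 15545 sites, where 8 of 8 planted counts were recovered. Python 3.11.15, numpy 2.4.6, pandas 2.3.3, pysam 0.24.0 and matplotlib 3.10.9 were used.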

Additional observations from a re-analysis of the deposited data

How the results depend on the processing

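No paired analysis was possible because each condition had 1 list with no replicate columns, and for the same reason no replicate could be left out. Of 72 alternative values, 58 stayed within 1.5 times the reported count. A window of 1 kb left 19 member peaks in the SST list and 2 of them in that list only. The top 50% of each list by score left 18 member peaks in each list. Chaining peaks within 1 kb left 17 clusters in the DOP list and 15 in the SST list, with 0 members having fewer in the DOP list, and Tcf3, Id1 and Id3 then had equal numbers. The sharing rules and the point limits do not enter the number of peaks per gene, so they could not change it. For Id2 and Id4 the 20 kb window could not either, since the nearest peaks beyond 10 kb lay more than 30 kb away. Under the other alternatives Id2 and Id4 had more in the DOP list, except the top 50% by score, in which neither gene kept a peak. A minimum score of 100 left Id4 1 DOP peak. Pairs standing 10 or more points higher in the DOP list numbered 1 with windows of 1 kb and 5 kb, with starts of protein-coding transcripts only, and where the nearest start had to be the member's own. At limits of 20 and 5 points there were 1 and 6 higher pairs, and at 20 points 0 lower. The depth behind each list is not known, and its part in the peaks of low score was not tested.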

Other observations

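A few peaks lay in the bodies of Tcf12 and Tcf4 beyond 10 kb from any start, each in 1 list only. Tcf12 had 1 in the SST list, 35069 bp from its nearest start, with a score of 26.0 (percentile 0.705). Tcf4 had 2 in the DOP list, 12467 and 13128 bp from a start, with scores of 61.0 and 165.0 (percentiles 4.95 and 18.6), and 1 in the SST list, 69093 bp from a start, with a score of 32.0 (percentile 1.64). All 4 were of low rank. Among peaks near genes with percentiles under 10, 72.6% of the DOP list and 59.5% of the SST list were in that list only. Among DOP peaks near genes with percentiles from 10 to 20 it was 45.6%. The share over all peaks farther than 10 kb from any start was not computed.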
